A study of Homo sapiens with 4 samples.

Results

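The epithelial sodium transport genes described here are 8 genes that act around prostasin, the membrane-anchored serine protease encoded by PRSS8. The set holds the 4 subunit genes of the epithelial sodium channel ENaC (SCNN1A, SCNN1B, SCNN1G and SCNN1D), F2RL1 (PAR2, protease-activated receptor 2), SGK1, NEDD4L and ATP1B1. A gene was taken where the platform annotation gave a probe set exactly 1 symbol, current or older, of that gene. This found 7 of the 8 genes, each with 1 probe set, among 22411 genes in all, and F2RL1 was not analysed here. SCNN1D was matched by its symbol and the other 6 by their gene identifiers.

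The study used HCT116, an established human colon cancer cell line, transiently transfected with a PRSS8 expression plasmid or with the empty vector as control. There were 2 arrays of PRSS8 overexpression and 2 of the control, numbered replicates 1 and 2 in each group. The labels call the replicates biological but do not say that they came from separate transfections, so p-values measure only the spread between these arrays. The time after transfection, the promoter on the plasmid and the share of cells that took it up are not given in the sources used here. Levels are log2 RMA values of Affymetrix whole-transcript arrays. A gene's place on an array is given as the percentage of all genes with a lower value; probe sets differ in brightness, so this place, and the words dim and bright, describe the probe set's signal and do not rank transcripts by abundance.

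ENaC carries sodium across the apical membrane of epithelial cells in the kidney, lung and distal colon. Prostasin raises the current through ENaC, in part through cleavage of its gamma subunit, and PAR2 is known as a target of prostasin signalling in mouse skin. The ubiquitin ligase NEDD4L (NEDD4-2) binds ENaC and marks it for removal from the membrane. SGK1, a kinase induced by aldosterone and glucocorticoids, phosphorylates NEDD4L and so keeps ENaC at the surface. The sodium pump, of which ATP1B1 is a beta subunit, moves sodium out of the cell on the basolateral side. The comparison asks whether these genes differ in level when HCT116 cells are made to express more PRSS8.

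PRSS8 itself stood at 18.55 and 18.07 on the PRSS8 arrays (replicates 1 and 2), against 10.45 and 11.18 on the control arrays. It lay above 96.1% and 98.0% of genes on the control arrays, so its probe set was bright there too. The groups were far apart, and PRSS8 minus control was 8.10 within replicate 1 and 6.89 within replicate 2. Arrays of one replicate number lay closer to each other than arrays of one group. Pearson's r across genes, which are not independent replicates, was 0.996 within number 1 and 0.989 within number 2, but 0.934 for the PRSS8 arrays with each other and 0.930 for the controls. Differences are therefore given within each number: pair 1 sets the PRSS8 array numbered 1 against the control numbered 1, and pair 2 does so for number 2.

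Of the markers of colon epithelium, 5 of 12 stood clear of the dim end, namely EPCAM, KRT8, KRT18, KRT19 and CDH1, between 7.95 and 15.05 on all arrays. The other 7, among them CDX2, VIL1 and GPA33, lay below the median level of all genes. Summed over the 12 markers, the log2 levels came to 85.2 and 86.8 on the PRSS8 arrays and to 84.5 and 83.6 on the control arrays. Markers of endothelium, of fibroblasts and of principal cells of the renal collecting duct all had mean levels below the median of all genes. So did 4 of the 5 measured leukocyte markers, whereas CD68, a lysosomal membrane protein used as a macrophage marker, stood at 8.47 and 9.44 on the PRSS8 arrays, against 7.23 and 8.11 on the control arrays. The part of these markers in the values below was not tested. In bulk RNA, fewer cells that express a gene and less RNA of that gene per cell cannot be told apart.

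None of the 7 measured sodium transport genes differed past the threshold between PRSS8 and control arrays. In limma, 0 of the 7 had an adjusted p under 0.05 and 0 had an unadjusted p under 0.05. Among all 22411 genes, 0% passed as higher and 0% as lower at an adjusted p under 0.05 (42 genes, or 0.187%, had an unadjusted p under 0.05), and PRSS8 did not pass on the 4 arrays. It passed in limma with a control array left out (adjusted p = 3.4e-06 without replicate 1 and 2.2e-10 without replicate 2), and over all alternatives its adjusted p ranged up to 1. NEDD4L and SGK1 were higher in both pairs (2 of 7), where 26.0% of all genes were. SCNN1G was lower in both pairs (1 of 7), where 24.5% of all genes were, but its sign in pair 2 turned under each of 3 other normalizations. The other 4 had opposite signs in the pairs. These shares are near the background. No member was at least 1.5-fold higher in both pairs (0.460% of all genes were) or at least 1.5-fold lower in both (0.156% of all genes were). In all 7 the levels of the groups overlapped, while among all genes the PRSS8 arrays both exceeded the controls in 5.53% and both fell short of them in 5.56%. The median difference of the 7 was 0.01 in pair 1 and 0.11 in pair 2, beside −0.0012 and 0.0090 over all genes. With 2 arrays a group, the smallest p that an exact two-sided permutation test allows is 0.333.

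**Figure D1:**
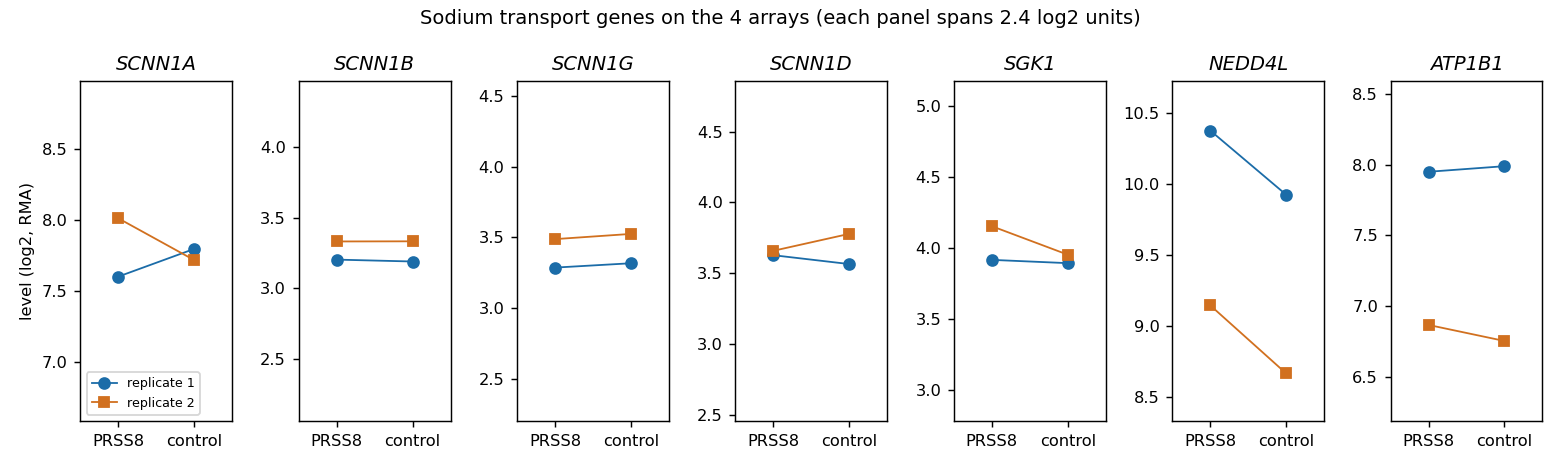
Level (log2, RMA) of the 7 measured sodium transport genes, with PRSS8 overexpression left of control in each panel; circles are replicate 1, squares are replicate 2, lines join arrays of one number, and every panel spans the same width on the log2 scale. NEDD4L runs higher on the PRSS8 array of both numbers, and NEDD4L and ATP1B1 lie over 1 log2 unit lower on the replicate 2 arrays.

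SCNN1A, the pore-forming alpha subunit (probe set TC12001136.hg.1), stood at 7.60 and 8.01 on the PRSS8 arrays (replicates 1 and 2), against 7.80 and 7.72 on the control arrays. It lay above 85.5% and 90.8% of genes on the PRSS8 arrays and above 86.5% and 90.8% on the control arrays. The control levels lay between the PRSS8 levels, and the pairs had opposite signs, with −0.20 in pair 1 and 0.30 in pair 2. The pair 2 value was 0.075 after quantile normalization and 0.18 after cyclic loess, and the pair 1 value −0.14 and −0.13. Over the 4 arrays the difference was 0.05 (SE 0.55, 95% interval −1.38 to 1.48; limma, adjusted p = 1), an interval that spans folds of 0.385 to 2.78.

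The beta and gamma subunits are the partners that bring the alpha subunit to full current, and gamma carries the segment that prostasin helps to release. Their genes neighbour each other, with no other gene lying wholly between them in RefSeq (GRCh38.p14). SCNN1B (TC16000254.hg.1) stood at 3.20 and 3.33 on the PRSS8 arrays, against 3.19 and 3.33 on the control arrays. SCNN1G (TC16000253.hg.1) stood at 3.29 and 3.49 on the PRSS8 arrays, against 3.32 and 3.52 on the control arrays. Both genes sat at the dim end: SCNN1B lay above 6.22% to 10.3% of genes, and SCNN1G above 15.8% to 19.3%, over the 4 arrays. The pair differences were 0.01 and −0.0010 for SCNN1B, and −0.03 and −0.04 for SCNN1G, whose pair 2 value was 0.0046 to 0.032 after quantile normalization, median centring or cyclic loess. Detection could not be computed without scanner files, so at such levels a small difference does not show that the transcripts were unchanged.

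SCNN1D encodes the delta subunit, which can take the place of alpha in the channel. It (TC01000032.hg.1) stood at 3.63 and 3.66 on the PRSS8 arrays, against 3.56 and 3.78 on the control arrays. The control levels lay on either side of the PRSS8 levels, with 0.06 in pair 1 and −0.12 in pair 2, and the gene lay above 27.9% to 36.3% of genes. The differences over the 4 arrays were 0.01 for SCNN1B (95% interval −0.35 to 0.37), −0.03 for SCNN1G (−0.43 to 0.37) and −0.03 for SCNN1D (−0.40 to 0.34), each with an adjusted p of 1 in limma.

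SGK1 (TC06002126.hg.1) stood at 3.92 and 4.15 on the PRSS8 arrays, against 3.89 and 3.95 on the control arrays. The PRSS8 array was higher in both pairs, by 0.02 in pair 1 and 0.20 in pair 2, but the replicate 1 PRSS8 level lay between the control levels. The difference over the 4 arrays was 0.11 (SE 0.15, 95% interval −0.28 to 0.51; limma, adjusted p = 1), and without PRSS8 replicate 2 it was −0.0067. SGK1 lay above 45.3% and 47.5% of genes on the PRSS8 arrays and above 44.8% and 39.6% on the control arrays. It was thus on the dim side, below the median level of all genes on every array, and its detection could not be computed either.

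NEDD4L (TC18000202.hg.1) had the largest difference of the 7 genes, on the bright side of the arrays. It stood at 10.38 and 9.15 on the PRSS8 arrays, against 9.93 and 8.66 on the control arrays, above 94.2% to 95.9% of genes. The PRSS8 array was higher by 0.45 in pair 1 (1.37-fold) and by 0.48 in pair 2 (1.40-fold), and of the 5788 genes averaging 6 or more over the arrays, 38.0% were higher in both pairs. The sizes depend on the scaling: pairs 1 and 2 gave 0.57 and 0.20 after quantile normalization and 0.53 and 0.33 after cyclic loess. The replicate 2 arrays lay 1.23 (PRSS8) and 1.26 (control) below those of replicate 1, which is over 2 times the difference between PRSS8 and control, and the groups overlapped. The difference over the 4 arrays was 0.47 (SE 0.90, 95% interval −1.89 to 2.82; limma, adjusted p = 1), or 1.38-fold with an interval of 0.270 to 7.08. Leaving out an array, which also unbalances the replicate numbers, gave −0.15 (PRSS8 replicate 1 left out), −0.16 (control replicate 2), 1.08 (PRSS8 replicate 2) and 1.10 (control replicate 1).

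ATP1B1 (TC01001473.hg.1) stood at 7.95 and 6.87 on the PRSS8 arrays, against 7.99 and 6.75 on the control arrays. Its pairs had opposite signs, with −0.04 and 0.11, and its difference over the 4 arrays was 0.04 (SE 0.72, 95% interval −1.83 to 1.90; limma, adjusted p = 1). Like NEDD4L it was lower on the replicate 2 arrays, by 1.08 in PRSS8 cells and by 1.23 in control cells. Leaving out 1 array moved its difference to between −0.58 (without control replicate 2) and 0.65 (without control replicate 1).

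**Figure D2:**
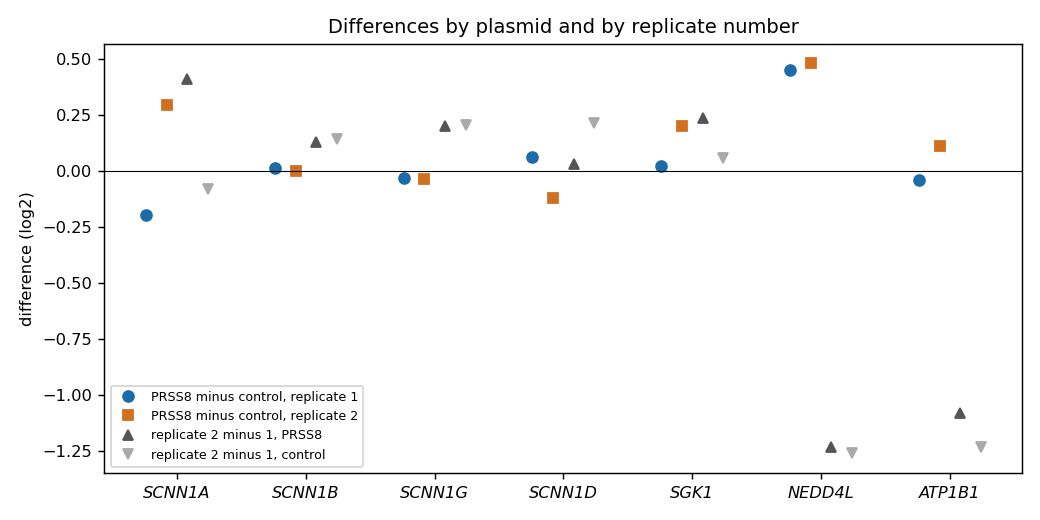
Differences (log2) for the 7 genes: circles and squares are PRSS8 minus control within replicates 1 and 2, and triangles are replicate 2 minus replicate 1 within PRSS8 (dark) and control (light). For NEDD4L and ATP1B1 the triangles lie between −1.08 and −1.26, farther from 0 than either PRSS8 minus control value.

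In 4 of the 7 genes (SCNN1B, SCNN1G, NEDD4L and ATP1B1) both steps between replicate numbers were larger in size than both pair differences, as in 51.8% of all genes. NEDD4L and ATP1B1 (2 of 7) were lower on both replicate 2 arrays than on both replicate 1 arrays, as were 25.2% of all genes. SCNN1B, SCNN1G, SCNN1D and SGK1 (4 of 7) were higher on both replicate 2 arrays, as were 54.0% of all genes. SCNN1A was in neither class. The median level of all genes was also higher on the replicate 2 arrays, at 4.26 (PRSS8) and 4.31 (control), against 4.14 and 4.15 on the replicate 1 arrays. By the percentage of genes below them, SCNN1B and SCNN1D lay lower on the replicate 2 arrays in both groups. SCNN1G and SGK1 did so among the controls only. The highest level on an array was 19.93 on both replicate 1 arrays, against 19.46 (PRSS8) and 19.44 (control) on the replicate 2 arrays. The part of such differences in array scale in the steps between replicate numbers was not tested. The labels do not say what the number stands for.

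**Figure D3:**
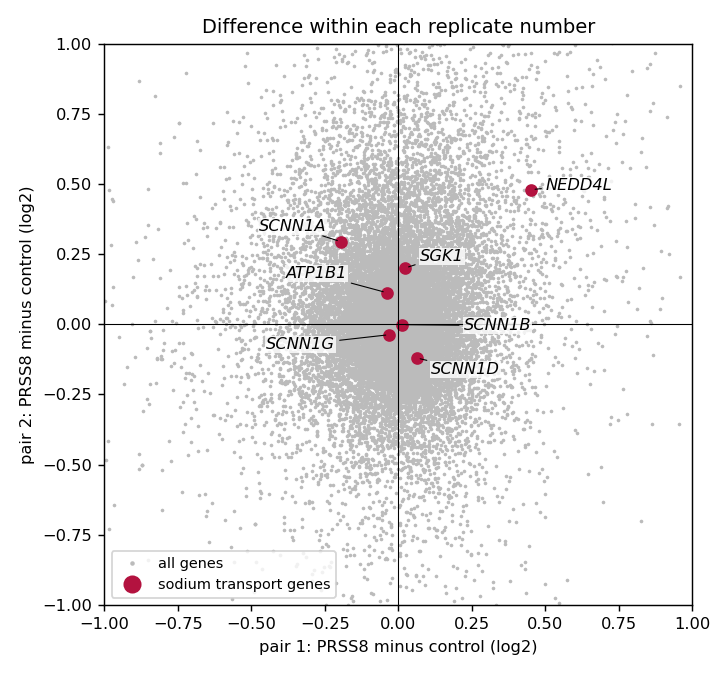
PRSS8 minus control (log2) in pair 1 (horizontal) and in pair 2 (vertical); small grey points are all genes, of which 529 lie outside the plotted range, and large points are the 7 sodium transport genes. NEDD4L lies at 0.45 and 0.48, and the other 6 lie within 0.31 of 0 in both pairs.

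The 10 RefSeq promoter windows of 4 measured genes (SCNN1B, SGK1, NEDD4L and ATP1B1), from 250 bases before a start site to 50 after it, were searched on both strands for AGAACA, the core motif of corticosteroid receptor elements (TGTTCT on the opposite strand). Corticosteroids are the classical inducers of SGK1 and ENaC. The half-site occurred in 2 windows, 1 of the 3 of SGK1 and 1 of the 5 of NEDD4L, and in 14.8% of all 35116 windows of this length. These 2 windows are shown because they hold the motif, whatever the levels of their genes. Each is given 5′ to 3′ on the gene's strand with the motif in capitals. The SGK1 window is chr6:134177812-134178111 (minus strand), and the motif begins 6 bases into the transcript. The NEDD4L window is chr18:58046976-58047275 (plus strand), and the motif begins 78 bases before the start. Coordinates are GRCh38.p14. A match describes letters only, and the arrays do not show which start site was used.
SGK1: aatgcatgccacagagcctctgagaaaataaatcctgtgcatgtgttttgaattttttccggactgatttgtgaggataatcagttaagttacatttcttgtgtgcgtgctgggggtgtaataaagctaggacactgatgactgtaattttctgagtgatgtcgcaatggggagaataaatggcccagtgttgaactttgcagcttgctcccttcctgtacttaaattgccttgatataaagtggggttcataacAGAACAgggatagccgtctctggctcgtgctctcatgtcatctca
NEDD4L: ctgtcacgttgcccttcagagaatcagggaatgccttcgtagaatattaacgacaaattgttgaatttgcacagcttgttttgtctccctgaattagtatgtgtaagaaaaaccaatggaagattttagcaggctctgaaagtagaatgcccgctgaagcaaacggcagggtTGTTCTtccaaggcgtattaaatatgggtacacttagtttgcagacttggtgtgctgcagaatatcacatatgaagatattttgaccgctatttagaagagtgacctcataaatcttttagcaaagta

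Likeness to the other genes was measured as the root mean square distance between mean-centred log2 profiles over the 4 arrays, for the 3 members with the largest mean difference. Nearest to NEDD4L were MTFR1 (distance 0.026), ESRP1 (0.036) and ABITRAM (0.037), and 33 genes lay within 0.1. ESRP1, an epithelial splicing regulator, stood at 10.15 and 8.83 on the PRSS8 arrays, against 9.66 and 8.34 on the control arrays. These profiles hold both the step between PRSS8 and control and the larger step between replicate numbers. Nearest to SGK1 were COL6A4P1, LMNA and CALHM6 and nearest to SCNN1A were OR52L1, SMIM7 and CCR1, but 5056 and 1423 genes lay within 0.1 of these profiles, so the names pick out little. Among the members, SCNN1B and SCNN1G had the most alike profiles (0.040), followed by SCNN1B and SCNN1D (0.046), and NEDD4L was nearest to ATP1B1 (0.22). These SCNN1 genes were dim and differed little between arrays, so their likeness too picks out little.

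The partners of these genes were followed in 8 lists, of which 100 different genes were measured, PRSS8 among them. Of these, 23 were higher in both pairs and 26 lower in both, close to the shares over all genes (26.0% and 24.5%). The same shares are the background for the counts of each list below, and no list was tested against them. In limma, 0 of the 100 had an adjusted p under 0.05.

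Among the regulators of ENaC turnover (23 of 25 measured), 6 were higher and 3 lower in both pairs, with a median difference of 0.08. STK39 (SPAK), a kinase of the WNK pathway that phosphorylates sodium and chloride cotransporters, stood at 12.32 and 10.44 on the PRSS8 arrays, against 11.20 and 9.82 on the control arrays. It was 1.11 higher in pair 1 and 0.61 higher in pair 2 (difference 0.86, SE 1.06), and the groups overlapped. ITCH, a ubiquitin ligase of the same family as NEDD4L, had a difference of 0.52 (SE 1.17), the mean of 0.28 in the first pair and 0.75 in the second. The close relative NEDD4 differed by 0.23 in pair 1 and −0.26 in pair 2. The mineralocorticoid receptor gene NR3C2, at 3.89 and 4.01 on the PRSS8 arrays against 3.89 and 3.89 on the control arrays, was dim. NEDD4 and NR3C2 were named after their values were seen.

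The corticosteroid-induced genes, of which 10 of 10 were measured, gave 6 higher and 0 lower in both pairs, with a median of 0.05. Of these 10 genes, 2 lay below the median level of all genes. Brighter genes were more often higher: of the 5788 averaging 6 or more, 2201 (38.0%) were higher and 866 lower in both pairs. A shift of this list was not tested. ERRFI1, a feedback inhibitor of the EGF receptor, had a difference of 0.95 (SE 0.94), the mean of 0.59 in the first pair and 1.31 in the second. MT2A, a metal-binding metallothionein, differed by 0.25 (SE 0.32).

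In the list of sodium pump subunits and their FXYD regulators, 8 of 14 genes were measured, with 3 higher and 0 lower in both pairs. FXYD5 (dysadherin), a regulator of the pump, stood at 5.94 and 7.06 on the PRSS8 arrays, against 5.88 and 6.34 on the control arrays (difference 0.40, SE 0.52). The ASIC channels, relatives of ENaC, were lower in both pairs for 3 of 5, with ASIC1 at −0.16 (SE 0.22) and a median of −0.04. The other sodium and chloride transporters (13 of 15 measured) were higher in both pairs for 2 and lower for 7, with a median of −0.07. Over all genes, 26.0% were higher and 24.5% lower in both pairs. In that list the potassium-chloride cotransporter SLC12A7 differed by −0.20 (SE 0.24) and the potassium channel KCNN4 by 0.46 (SE 0.51), the mean of 0.06 in pair 1 and 0.85 in pair 2. Of the 13, 8 lay below the median level of all genes.

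**Figure D4:**
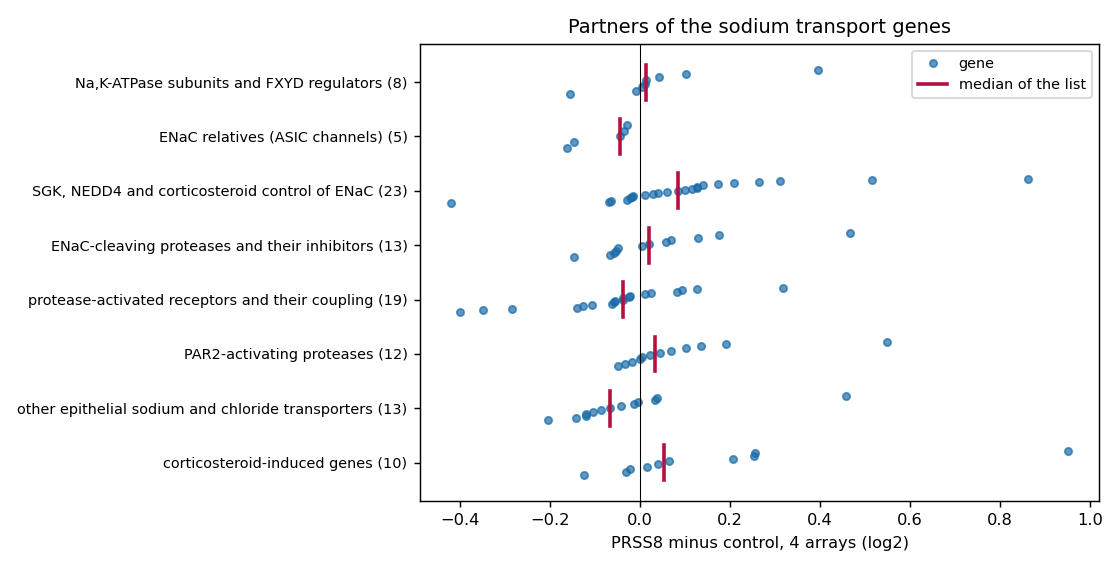
PRSS8 minus control over the 4 arrays (log2) for the measured genes of the 8 partner lists, with the number measured in brackets; points are genes, vertical bars are list medians, and PRSS8 itself, at 7.49, is left out of the points. The list medians lie between −0.07 and 0.08.

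Among the proteases that cleave ENaC and their inhibitors (13 of 13 measured), PRSS8 included, 3 were higher and 3 lower in both pairs. Urokinase (PLAU) differed by 0.47 (SE 0.39), and both PRSS8 arrays (6.37 and 6.91) stood above both controls (6.19 and 6.15). The same held for 5.53% of all genes and for 5 of the 100 partner genes, PLAU and PRSS8 included. Matriptase (ST14), the protease that acts with prostasin and also cleaves PAR2, differed by 0.07 (SE 0.49), with 0.07 and 0.06 in the pairs. Of the proteases that activate PAR2, 12 of 15 were measured, with 3 higher and 1 lower in both pairs and a median of 0.03.

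For the other protease-activated receptors and the proteins they couple to (19 of 20 measured), 1 was higher and 9 were lower in both pairs, with a median of −0.04. The shares over all genes were 26.0% higher and 24.5% lower in both pairs, and a shift of this list was not tested. ITPR2, a calcium release channel downstream of these receptors, stood at 5.84 and 4.33 on the PRSS8 arrays, against 6.24 and 4.73 on the control arrays. Its pair differences were −0.41 and −0.39, beside a step between replicate numbers of −1.50 and −1.51. The phospholipase PLCB1 differed by −0.35 (SE 0.89), with −0.51 and −0.19 in the pairs. The thrombin receptor gene F2R (PAR1), named after its values were seen, had pair differences of −0.01 and −0.04.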

How the data were processed

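Per the labels' protocols, total RNA of HCT116 cells was extracted with Trizol and biotin-labelled. The authors deposited log2 expression levels per probe set, the output of RMA in Affymetrix Expression Console 1.3.1, per the submitters' processing notes; joint normalization of the 4 arrays and the annotation's genome build are not given in the sources used here. Of 70523 probe sets, 67528 transcript clusters were kept. Those with exactly 1 symbol (23781) were named, with symbols updated through RefSeq, and the probe set of highest mean stood for a gene. PRSS8 minus control was fitted in R 4.3.3 with limma 3.58.1 (eBayes with an intensity trend, two-sided, Benjamini-Hochberg over 22411 genes, threshold 0.05, 2 residual degrees of freedom), and the code was tested on simulated data. Precision is limited by the number of arrays.

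The members, lists and rules were chosen with earlier results of these data known. Named genes are the 8 members, PRSS8, up to 2 genes per partner list (largest mean difference among those of one sign in both pairs and at or above the median level) and the 3 nearest profiles of 3 members. The alternatives were other normalizations, variance models, filters and probe set rules, the replicate block and leaving out each array.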

Additional observations from a re-analysis of the deposited data

How the results depend on the processing

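Over 80 recomputed member differences, 66 kept their direction and 14 did not, and 0 passed the threshold (limma, adjusted p from 0.954 to 1). Part of the 66 could not turn, because some settings left a member's difference as it was. These were the variance model, the level filter, the replicate block and the probe set rules, each member having 1 probe set. Direction could turn only under the 3 other normalizations or with an array left out. Quantile normalization gave −0.033 for SCNN1A and −0.0135 for ATP1B1, and median centring gave 0.0022 for SCNN1D. Members higher in both pairs numbered 4 with cyclic loess, 0 at 1.5-fold or more, and 4 within replicate 1 or replicate 2 arrays alone (added after seeing the data). Members lower in both pairs numbered 0 after quantile normalization, median centring or cyclic loess, 0 at 1.5-fold or more, and 3 within replicate 1 or replicate 2 arrays alone. NEDD4L and SGK1 were higher in both pairs under all 3 normalizations, joined by SCNN1B under all 3 and by ATP1B1 under cyclic loess, and SCNN1G was the member no longer lower in both.

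Leaving out 1 array also changes the balance of replicate numbers, and the lone array of a group is assumed to vary like the other group's arrays. Differences then ranged from −0.16 to 0.26 for SCNN1A, −0.065 to 0.077 for SCNN1B, −0.14 to 0.070 for SCNN1G, −0.14 to 0.078 for SCNN1D, −0.0067 to 0.23 for SGK1, −0.16 to 1.10 for NEDD4L and −0.58 to 0.65 for ATP1B1. They ranged from −0.16 to 0.95 for FXYD5, −0.077 to 1.80 for STK39, −0.58 to 1.61 for ITCH, −1.16 to 0.36 for ITPR2, −1.36 to 0.66 for PLCB1, −0.065 to 0.20 for ST14 and −0.13 to 2.03 for ERRFI1. Direction held for MT2A (0.0022 to 0.51), PLAU (0.20 to 0.74), KCNN4 (0.20 to 0.71), ASIC1 (−0.25 to −0.07), SLC12A7 (−0.29 to −0.12) and PRSS8 (7.13 to 7.86). Except for MT2A, the groups did not overlap in these genes, so leaving out 1 array could not turn the sign. Genes past the threshold ranged from 0 to 5 higher and from 0 to 59 lower, with both counts above 0 only without a control array.

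With the replicate number as a block, NEDD4L differed by 0.47 (95% interval −0.16 to 1.10, limma, adjusted p = 0.954), PRSS8 had an adjusted p of 0.076, 0 of 22411 genes passed and 1174 had an unadjusted p under 0.05. The SEs given for single genes come from the fit without this block and include the step between replicate numbers. With the block, 95% intervals left out 0 for STK39 (0.12 to 1.61), ERRFI1 (0.20 to 1.71) and ITPR2 (−0.69 to −0.11), each with adjusted p = 0.943 in limma. These genes had been picked by the size of their differences. The intervals of the 7 measured members and of the other partner genes picked by that rule, PRSS8 aside, held 0. Steps between the numbers correlated at r = 0.910 across genes between the groups, but with 2 pairs the samples share only a number.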
